A study of Homo sapiens with 6 samples.

Results

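The metabotropic glutamate receptors analysed here were GRM2, GRM4, GRM7 and GRM8, 4 of the 21301 genes in the deposited table. They were chosen by gene symbol from a list of 7 receptors, GRM2 to GRM8, and by having read counts in both groups. No count in the table is under 1, which means that each listed gene had a read in all 6 libraries, and GRM3, GRM5 and GRM6 were not analysed here. The list was drawn up with the difference between the groups already known, so the values below describe these genes and are not independent evidence that receptors of this family respond.

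The cells were SH-SY5Y, an established human neuroblastoma line used as a model of neurons. In the siControl group they received a control siRNA and in the siPSF group a single siRNA against PSF, the RNA-binding protein encoded by SFPQ, each at 10 nM for 72 h, with 3 libraries of poly(A)-selected RNA per group. No other agent was named, both groups came from the same line, and the study describes the libraries as biological triplicates. Counts summed to between 101540520 and 132420931 per library. SFPQ was at 356 to 401 CPM (read counts scaled to library size, with TMM factors) in siControl and 165 to 209 CPM in siPSF libraries, which left 50.2% of the siControl mean. Of the 8 markers of noradrenergic neuroblastoma listed for a check of the cell type, all had counts, with HAND2 at 1177 CPM and TH, the enzyme that starts catecholamine synthesis, at 0.741 CPM in siControl. The 8 markers summed to between 4854 and 5436 CPM in siControl and between 4305 and 5198 CPM in siPSF libraries, with DBH and TH called lower and GATA3 called higher. The highest siPSF sum was that of replicate 3, where CHGA reached 1019 CPM, against 517 and 534 CPM in replicates 1 and 2. DBH fell from a mean of 1738 to 1085 CPM, or to 62.4% (log2 fold change -0.68, edgeR's adjusted p = 0.0024). Its call held in all 12 alternatives. The GATA3 call did not hold in any of the 6 leave-one-out fits (edgeR's adjusted p up to 0.099), and that of TH did not hold without siControl replicate 2 or 3 (up to 0.10). Of the 7 mesenchymal and Schwann cell markers 4 had counts in every library. Only FN1, a matrix protein gene, passed 2 CPM, and it was called lower, with means of 78.7 ± 2.16 and 52.0 ± 3.69 CPM (SD, n = 3 per group) and a log2 fold change of -0.60 that held in all 12 alternatives (edgeR's adjusted p = 0.00085). The 4 markers summed to between 78.1 and 82.1 CPM in siControl and between 50.0 and 57.7 CPM in siPSF libraries. Of the 3 astrocyte markers only ALDH1L1 had counts, at a mean of 0.335 CPM in siControl. The part of these marker differences in the receptor values was not tested.

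Metabotropic glutamate receptors are class C G protein-coupled receptors that bind glutamate in a large extracellular domain. Group I receptors couple to Gq and phospholipase C. Groups II (GRM2, GRM3) and III (GRM4, GRM6, GRM7, GRM8) couple to Gi/o proteins, lower cyclic AMP and often sit on the presynaptic side, where they hold back transmitter release. The genes analysed therefore hold 1 group II and 3 group III receptors.

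GRM7 and GRM8, both of group III, were lower after siPSF, while GRM2 and GRM4 did not pass the test. Their mean levels in siPSF were 25.4% of the siControl mean for GRM7, 43.1% for GRM8, 77.9% for GRM2 and 138% for GRM4. At an adjusted p under 0.05 from edgeR's quasi-likelihood test over 19694 genes, 2 of the 4 receptors were called lower and 0 were called higher. Among all genes tested 8.27% were called lower and 6.65% higher. For 2 of the 4 receptors all siPSF libraries were under all siControl libraries, as they were for 17.8% of all genes tested. In bulk RNA, fewer cells that make a receptor and less receptor RNA per cell cannot be told apart.

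GRM7 (gene ID 2917) encodes the presynaptic group III receptor that needs the highest glutamate concentrations. The siControl libraries held 9.45, 9.58 and 11.5 CPM of its mRNA, and after siPSF 3.37, 2.97 and 1.42 CPM were left. The groups did not overlap, and siPSF replicate 3 stood well under the other two siPSF libraries. The group means were 10.2 ± 1.13 and 2.59 ± 1.03 CPM (SD, n = 3 per group), which gave a log2 fold change of -1.97 with a standard error of 0.24 and an adjusted p of 0.00036 (edgeR). That was rank 44 from the largest fall among the 19694 genes. The coefficient of variation was 39.8% in siPSF and 11.1% in siControl, and without siPSF replicate 3 the log2 fold change was -1.68. The siPSF libraries had the same order for GRM7 as for SFPQ, with replicate 3 lowest in both, an order that 16.5% of all genes tested shared.

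GRM8 (gene ID 2918) encodes another presynaptic group III receptor. It was at 13.5, 11.2 and 11.4 CPM in siControl libraries and at 5.15, 5.61 and 4.81 CPM in siPSF libraries. The siPSF values lay close together and apart from the siControl values. The group means were 12.0 ± 1.24 and 5.19 ± 0.401 CPM (SD, n = 3 per group), and edgeR gave a log2 fold change of -1.21, a standard error of 0.13 and an adjusted p of 0.00012. It stood at rank 364 from the largest fall. The count of GRM8 relative to that of GRM7 was 1.42, 1.17 and 0.997 in siControl and 1.53, 1.89 and 3.39 in siPSF libraries. These ratios did not overlap, but that of siPSF replicate 1 lay close to that of siControl replicate 1. Whether GRM7 fell further than GRM8 was not tested. The intervals of their log2 fold changes in edgeR's fit overlapped, from -2.50 to -1.44 for GRM7 and from -1.48 to -0.94 for GRM8.

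GRM2 (gene ID 2912) encodes a group II receptor that damps glutamate release. It was at 3.77, 3.13 and 2.64 CPM in siControl and at 2.67, 2.38 and 2.38 CPM in siPSF libraries. The groups overlapped, since siPSF replicate 1 lay above siControl replicate 3. The log2 fold change was -0.36 with a 95% interval of -0.73 to 0.01 and an adjusted p of 0.18 (edgeR), so a fall of the size seen in GRM8 lay outside the interval and a smaller one did not.

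GRM4 (gene ID 2914), a group III receptor, was the least abundant. Its counts were 51, 48 and 18 in siControl and 57, 52 and 30 in siPSF libraries, or 0.419, 0.360 and 0.143 CPM and 0.480, 0.493 and 0.304 CPM. In both groups replicate 3 was lowest, and the groups overlapped. The log2 fold change of 0.47 had a 95% interval from -0.36 to 1.31 and an adjusted p of 0.45 (edgeR), and with counts this low a rise as large as the fall of GRM8 lay within the interval.

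**Figure D1:**
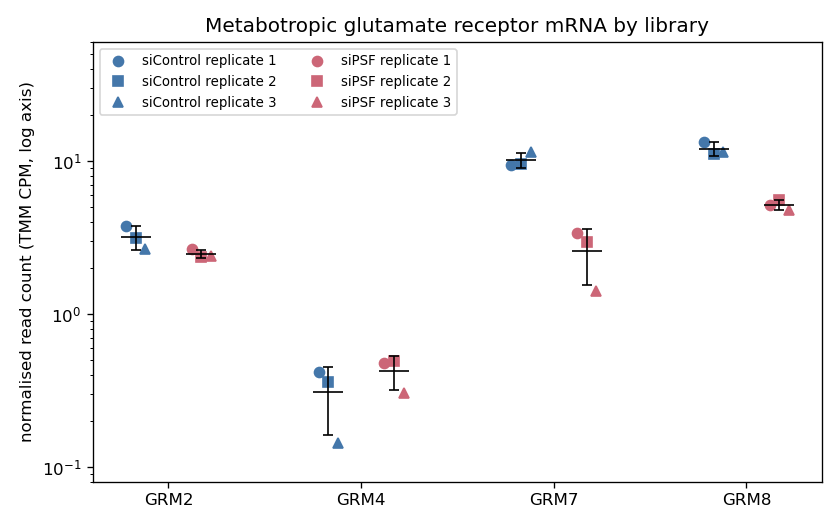
Level of each receptor in every library, in TMM-normalised CPM on a log axis, with siControl in blue, siPSF in red and 1 marker shape per replicate. Horizontal bars are means and vertical bars are SD (n = 3). The siPSF points of GRM7 (1.42 to 3.37 CPM) and GRM8 (4.81 to 5.61 CPM) lie under all siControl points, and those of GRM2 and GRM4 overlap them.

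Between genes, levels were compared per length, with the deposited FPKM values (fragments scaled by transcript length and library size). In siControl libraries the order was GRM8 at 2.99 ± 0.309, GRM7 at 1.70 ± 0.206, GRM2 at 0.919 ± 0.258 and GRM4 at 0.0380 ± 0.0174 FPKM (SD, n = 3), and no library of a receptor reached the values of the next one up. In siPSF libraries GRM8 remained first at 1.22 ± 0.0772 FPKM, followed by GRM2 at 0.586 ± 0.240, GRM7 at 0.381 ± 0.107 and GRM4 at 0.0507 ± 0.0129 FPKM (SD, n = 3). GRM2 and GRM7 did not differ there beyond their spread, since GRM2 ranged from 0.433 to 0.863 and GRM7 from 0.258 to 0.444 FPKM. The 4 receptors summed to 5.23 to 6.36 FPKM in siControl and to 1.90 to 2.59 FPKM in siPSF libraries. GRM7 made up 27.9 to 33.6% of that sum in siControl and 13.6 to 19.8% in siPSF libraries. GRM8 held 52.5 to 54.1% in siControl and 47.4 to 60.1% in siPSF libraries, ranges that overlapped.

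**Figure D2:**
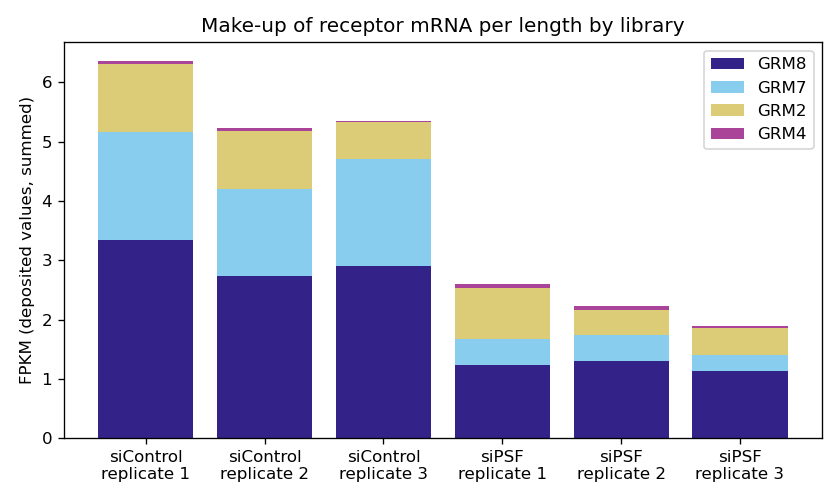
Deposited FPKM of the 4 receptors, stacked, for each library. The bars of the siPSF libraries reach 1.90 to 2.59 FPKM against 5.23 to 6.36 FPKM in siControl with a smaller share of GRM7 in each of them (13.6 to 19.8% against 27.9 to 33.6%).

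Counts and FPKM did not always move together. CPM on the unadjusted library total divided by FPKM gives the transcript length that the authors' values imply, and this length should be alike in all libraries when the mix of transcripts is alike. For GRM8 it was 4.09 to 4.18 kb over the 6 libraries and for GRM4 8.13 to 8.33 kb. For GRM2 it was 3.38, 3.21 and 4.38 kb in siControl and 3.05, 5.30 and 5.00 kb in siPSF libraries. For GRM7 it was 5.29, 6.62 and 6.71 kb in siControl and 7.47, 6.50 and 5.35 kb in siPSF libraries. The groups overlapped for both genes. The highest value of GRM2 was 1.74 times its lowest and that of GRM7 1.41 times, where the median over the 14209 genes that reached 100 counts in each of the libraries was 1.02, and 0.338% and 1.42% of those genes varied more.

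The receptors that were lower also had the longest genes. GRM7 spans 880 kb on chromosome 3 of GRCh38 (6861115 to 7741533, plus strand) and GRM8 814 kb on chromosome 7 (126438598 to 127252941, minus strand). GRM4 spans 137 kb on chromosome 6 (34018643 to 34155622, minus strand) and GRM2 11.5 kb on chromosome 3 (51707068 to 51718613, plus strand). Their coding lengths are nearly equal, from 872 to 915 codons in the canonical GENCODE transcripts, so the difference lies in the introns. Exons make up 0.471% of the canonical GRM7 transcript unit and 0.455% of that of GRM8, against 5.78% for GRM4 and 29.1% for GRM2. The canonical GRM7 transcript has 5 introns over 100 kb, the longest being the first at 285 kb, and that of GRM8 has 4, the longest being the third at 202 kb. Those of GRM4 and GRM2 have 0, with longest introns of 40.9 and 3.04 kb.

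Protein-coding genes as long as GRM7 and GRM8 were lower as a class. The 128 genes of 700 kb or more, a limit set after the values were seen, had a median log2 fold change of -0.77 (quartiles -1.21 and -0.38), and 57.8% of them were called lower and 1.56% higher. Within that class GRM7 had the sixth largest fall and GRM8 stood at rank 31, close to the lower quartile. The 2400 genes of 100 to 400 kb, the class of GRM4, had a median of -0.15 with 20.7% called lower, and the 8590 genes of 10 to 100 kb, the class of GRM2, had a median of 0.03 with 5.24% called lower. The point estimate of GRM4 lay above the median of its class and that of GRM2 below. The part of gene length in the receptor values was not tested.

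**Figure D3:**
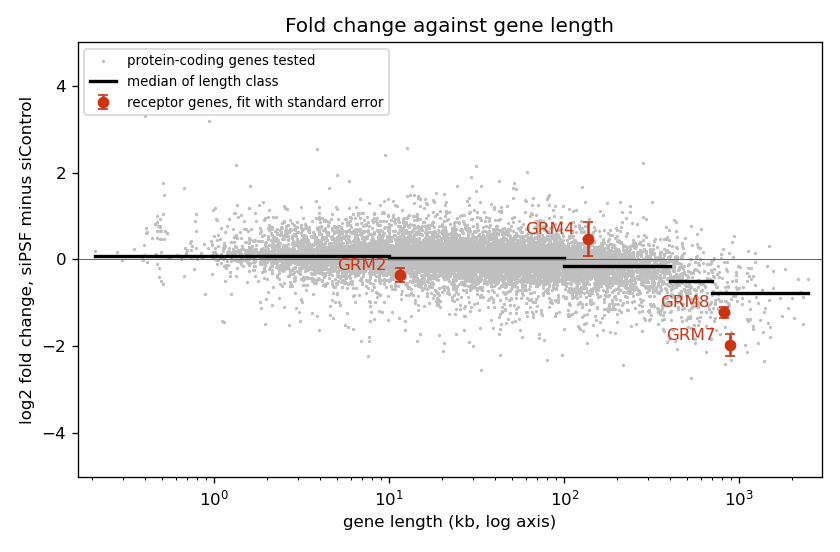
Fold change after siPSF (log2, linear axis) against gene length (kb, log axis) for protein-coding genes tested (grey), with the median of each length class as black bars and the 4 receptors in red with standard errors. GRM7 (-1.97) and GRM8 (-1.21) sit at the long end, under the class median of -0.77, and GRM4 sits above the median of its class.

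Because GRM7 and GRM8 were lower together, the sequence at their start sites is shown, with that of GRM2 for contrast. Each is 280 bases long, 5′ to 3′ on the gene's strand, and ends with the first 30 bases from the RefSeq start site on, and capitals mark the letters GGGCGG or their reverse complement, the GC box bound by SP1 and related factors.
GRM7: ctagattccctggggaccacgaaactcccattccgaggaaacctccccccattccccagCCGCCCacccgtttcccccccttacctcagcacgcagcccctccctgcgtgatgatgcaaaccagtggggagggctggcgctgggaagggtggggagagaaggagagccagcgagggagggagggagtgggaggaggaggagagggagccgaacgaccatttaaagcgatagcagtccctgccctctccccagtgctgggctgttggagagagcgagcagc
GRM8: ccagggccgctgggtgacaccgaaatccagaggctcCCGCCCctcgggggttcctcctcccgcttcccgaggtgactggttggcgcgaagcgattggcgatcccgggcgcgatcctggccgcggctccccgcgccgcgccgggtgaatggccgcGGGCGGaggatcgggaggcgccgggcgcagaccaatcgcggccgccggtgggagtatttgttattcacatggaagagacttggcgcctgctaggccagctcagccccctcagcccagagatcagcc
GRM2: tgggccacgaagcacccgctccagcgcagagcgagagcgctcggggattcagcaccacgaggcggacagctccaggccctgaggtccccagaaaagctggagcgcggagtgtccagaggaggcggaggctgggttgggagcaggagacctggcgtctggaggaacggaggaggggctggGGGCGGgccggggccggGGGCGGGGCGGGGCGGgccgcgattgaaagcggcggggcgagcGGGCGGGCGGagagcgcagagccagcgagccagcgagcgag
These windows are chr3:6860865-6861144 (plus strand), chr7:127252912-127253191 (minus strand) and chr3:51706818-51707097 (plus strand) of GRCh38.p14, from RefSeq, which matched all 4 receptors. GRM8 has 3 further start sites and GRM4 has 2 in that table, and GRM8's listed first was used.

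In the windows shown, the start sites of the 2 receptors that were lower were unlike in these letters. GGGCGG, searched on both strands, occurs 1 time in the GRM7 window, 2 times in that of GRM8 and 6 times in that of GRM2, counting overlapping matches, and 44.1% of the 35116 windows in the table hold it. The window of GRM4 listed first holds 0. Its start site (34146087) lies inside the gene and not at the 5′ end (34155622), unlike those of the windows shown. GRM7 has 12 CG dinucleotides, GRM8 32, GRM2 31 and that GRM4 window 9, with a median of 13 over all windows. CCAAT, searched on both strands, is in the GRM8 window and in 33.6% of all windows. TATAAA, held by 11.2% of all windows, and TGACGTCA, the cyclic AMP response element, held by 1.85%, are in none of the windows of the 4 receptors listed first. The contrast of GRM7 and GRM8 depends on the GRM8 start site used. The further GRM8 windows hold GGGCGG 0, 1 and 0 times and have 1, 7 and 14 CG dinucleotides.

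Around the receptor genes, the nearest protein-coding genes with counts were read as well, a choice made after the values were seen. GRM7 lies far from both, with EDEM1 1641 kb before it and LMCD1 760 kb after it, and neither passed the test (log2 fold changes of -0.22 and -0.06, edgeR's adjusted p of 0.21 and 0.82). Beside GRM8, ZNF800, a zinc finger gene 89.9 kb upstream of its start on chromosome 7 (127342859 to 127392708), was called lower. Its siControl values of 41.4, 47.3 and 56.9 CPM stood over siPSF values of 27.0, 25.5 and 26.4 CPM, and the log2 fold change was -0.88 (edgeR's adjusted p = 0.00048). POT1, a telomere protein gene on the other side of GRM8 at 1509 kb, had a log2 fold change of 0.19 (edgeR's adjusted p = 0.23). The neighbours of GRM2 (TEX264 and RRP9) and of GRM4 (LEMD2 and HMGA1) had log2 fold changes from -0.29 to 0.23 and did not pass.

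Of the genes that overlap the listed receptor genes, 2 have counts by position in the RefSeq table. LOC105375382, a long noncoding RNA gene inside GRM3 on chromosome 7 (86771484 to 86803436) that RefSeq now names GRM3-AS1, was at 3.98, 3.78 and 4.14 CPM in siControl and at 1.18, 1.16 and 1.29 CPM in siPSF libraries. Its libraries were tight in each group and far apart between groups (log2 fold change -1.72, edgeR's adjusted p = 5.2e-05). A separate row that the authors name GRM3-AS1 (gene ID 112268007), which no RefSeq position could be given for and which was named after its values were seen, had means of 2.06 ± 0.547 and 0.558 ± 0.217 CPM (SD, n = 3 per group) and a log2 fold change of -1.88 (edgeR's adjusted p = 0.0014). Reads may be shared between these rows, and without strand-aware counting, which the sources used here do not settle, reads of GRM3 itself would fall there too. ZNF454, a protein-coding gene that overlaps GRM6 on chromosome 5, had a log2 fold change of -0.43 and did not pass (edgeR's adjusted p = 0.060).

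To place the receptors in their pathway, 110 genes of 9 lists were read from the same fit. Of these 18 were called lower (16.4%) and 10 higher (9.09%), against 8.27% and 6.65% of all genes tested. The genes called lower had a median length of 168 kb, with 13 of 18 at 100 kb or more, and those called higher a median of 9.17 kb, with 0 of 10 at 100 kb or more. The 82 genes with no call had a median of 48.0 kb, with 25 at 100 kb or more.

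Among partners of the Gq branch, 3 of 7 phospholipase C beta and IP3 receptor genes were called lower and 0 higher (median log2 fold change -0.25, against 0.01 over all genes tested). ITPR2, a calcium release channel of the endoplasmic reticulum, had means of 9.62 ± 1.75 and 3.66 ± 0.673 CPM in siControl and siPSF (SD, n = 3 per group) and a log2 fold change of -1.39 (edgeR's adjusted p = 0.00034). PLCB1, a Gq effector enzyme, had a log2 fold change of -1.14 and PLCB4 of -0.40, a call that PLCB4 lost in 4 of the 6 leave-one-out fits (edgeR's adjusted p up to 0.092). ITPR1 was the most abundant per length at 20.7 FPKM in siControl and had a log2 fold change of -0.25 that did not pass (edgeR's adjusted p = 0.067).

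Among the G proteins, 1 of 7 alpha subunits was called lower and 0 higher (median 0.01). It was GNAO1, the Go alpha subunit of neurons, at -0.39 (edgeR's adjusted p = 0.041), a call that did not hold in 5 of the 6 leave-one-out fits (adjusted p up to 0.12). GNAI2, the most abundant per length, was at 0.07 and did not pass. Of 14 beta and gamma subunits 4 were called lower and 2 higher (median -0.12). The gamma subunit GNG7 had the largest fall of this list, with 16.1, 13.1 and 12.6 CPM against 6.81, 6.16 and 5.86 CPM and a log2 fold change of -1.15, and GNG8, GNG11 and GNG4 had log2 fold changes of -0.64, -0.42 and -0.40. GNG10 and GNB3, named after their values were seen, were the ones called higher, at 0.50 and 0.43, calls lost in 2 and 4 of the 6 leave-one-out fits (edgeR's adjusted p up to 0.079 and 0.13). GNB2, the most abundant per length, was at -0.04.

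Of the potassium channels opened by beta and gamma subunits, 3 were tested. KCNJ3 was called lower (-0.56) and KCNJ9 higher (0.39), a call that did not hold in 5 of the 6 leave-one-out fits (edgeR's adjusted p up to 0.12). Among 22 RGS proteins, receptor kinases and arrestins, which end G protein signals, 3 were called lower and 2 higher (median -0.05). RGS7, which speeds the shut-off of Gi/o proteins, was at 5.15, 4.89 and 5.58 CPM in siControl and 3.01, 2.55 and 1.94 CPM in siPSF libraries, a log2 fold change of -1.06. RGS16 and ARRB1 were at -0.38 and -0.39, RGS14 at 0.44 and RGS4, named after its values were seen, at 0.72. Over 6 leave-one-out fits RGS16 lost its call in 1, ARRB1 and RGS14 in 2 and RGS4 in 3 (edgeR's adjusted p up to 0.11). RGS4 lost it in 7 of all 12 alternatives, among them DESeq2, no filter on low counts and limma on FPKM. RGS5 was the most abundant per length and was at -0.10.

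Of 19 proteins that bind the receptors 1 was called lower and 2 higher (median 0.05). ELFN2, a relative of the synaptic protein ELFN1 that binds group III receptors across the cleft, was called higher, with means of 0.891 ± 0.179 and 1.79 ± 0.143 CPM (SD, n = 3 per group) and a log2 fold change of 1.01 (edgeR's adjusted p = 0.0070). On FPKM that call was lost (limma's adjusted p up to 0.089). HOMER2, a scaffold of group I receptors, was called lower at -0.42 and the phosphatase subunit PPP1CC higher at 0.37, calls lost in 2 and 3 of the 6 leave-one-out fits (edgeR's adjusted p up to 0.057 and 0.12), and CALM2, the most abundant per length, was at 0.03. PICK1, a PDZ protein that binds the tail of the GRM7 receptor, was at 40.4 CPM in siControl and did not pass (log2 fold change 0.05, edgeR's adjusted p = 0.75).

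Of 17 genes that supply or clear glutamate and the group II agonist N-acetylaspartylglutamate, 2 were called lower and 0 higher (median -0.07). These were GOT1, an aminotransferase, at -0.33, and SLC1A2, a glutamate transporter, at -0.55. The calls did not hold in 3 and 5 of the 6 leave-one-out fits (edgeR's adjusted p up to 0.079 and 0.14). Over all 12 alternatives that of SLC1A2 did not hold in 9. SLC1A5, an amino acid transporter and the most abundant per length, was at -0.14 and did not pass.

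The ionotropic glutamate receptor subunits and the other class C receptors are the families nearest in ligand and in structure. Of 12 ionotropic subunits 3 were called lower and 2 higher (median -0.03). GRIK2 (-1.03), GRIA4 (2.65 CPM in siControl against 1.32 CPM in siPSF) and GRID1 (-0.40) were lower, the last named after its values were seen, and GRIN1 (0.93) and GRIN3B (1.07) were higher. GRIN1, the obligatory subunit of NMDA receptors, had means of 13.6 ± 2.41 and 26.0 ± 1.55 CPM in the siControl and siPSF groups (SD, n = 3 per group). GRIN3B was at 0.229 CPM in siControl. It lost its call in 4 of the 6 leave-one-out fits and GRID1 in 5 (edgeR's adjusted p up to 0.13 and 0.16). Over all 12 alternatives GRIN3B lost its call in 7 and GRID1 in 8. GRIK5 had the highest level per length, 23.0 FPKM in siControl, and was at -0.14. Of 9 other class C receptors 0 were called lower by edgeR and 1 higher (median 0.37), the taste receptor TAS1R3 at 0.86. Its call was lost without siControl replicate 3 (edgeR's adjusted p = 0.062) and with limma on log2(FPKM + 0.01) (limma's adjusted p = 0.0502). Of the 9, 3 had a log2 fold change below 0. The lowest was GPR158, named after its values were seen, at -0.90 without a call (edgeR's adjusted p = 0.061). GABBR1, the most abundant per length, was at -0.13.

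**Figure D4:**
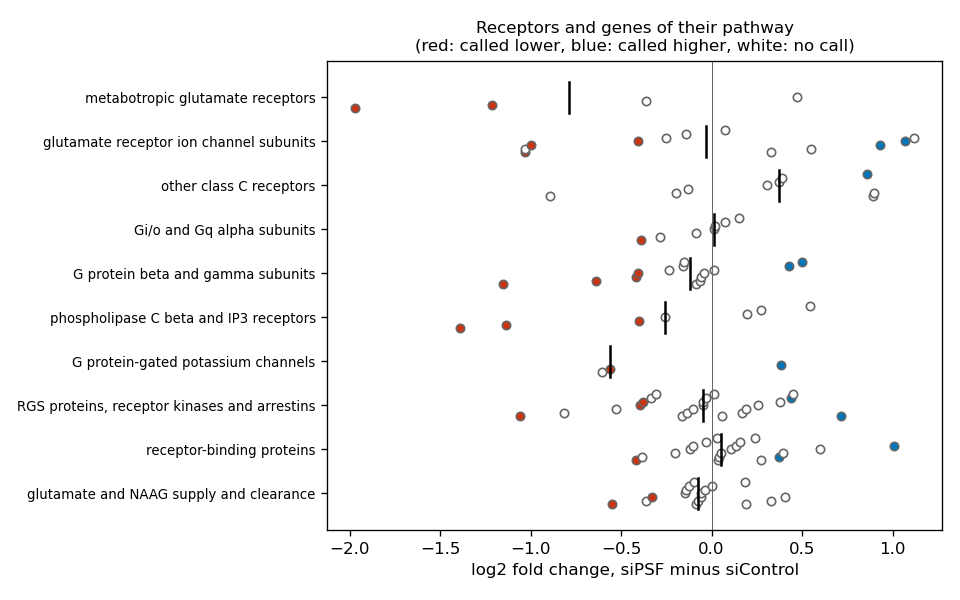
Log2 fold change after siPSF of the 4 metabotropic receptors and of each gene in 9 pathway lists, with 1 point per gene, red for genes called lower, blue for genes called higher and white for no call. Black bars are medians, between -0.56 and 0.37 for the 9 lists. GRM7 (-1.97) lies left of every list gene, and ITPR2 (-1.39) lies left of GRM8 (-1.21).

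The genes whose 6 library values were most like those of each receptor were found by the root mean square difference of log2 CPM, taken relative to the siControl mean, among 12653 protein-coding genes of at least 1 CPM. Nearest to GRM7 were THSD4 (0.22), TVP23C-CDRT4 (0.26) and the netrin receptor gene UNC5C (0.27). Nearest to GRM8 were GNG7 (0.096), BACH2 (0.10) and the release-site gene RIMS1 (0.11). For GRM2, which did not pass, they were NRIP3 (0.063), PRELID3A (0.083) and AURKB (0.087). GRM4 was under the level needed for this comparison. GRM7 had no gene as near to it as GRM2 and GRM8 had. The 3 genes nearest to GRM7 were 686, 127 and 386 kb long. Those nearest to GRM8 were 191, 370 and 517 kb long and those nearest to GRM2 were 5.85 to 24.3 kb long.

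**Figure D5:**
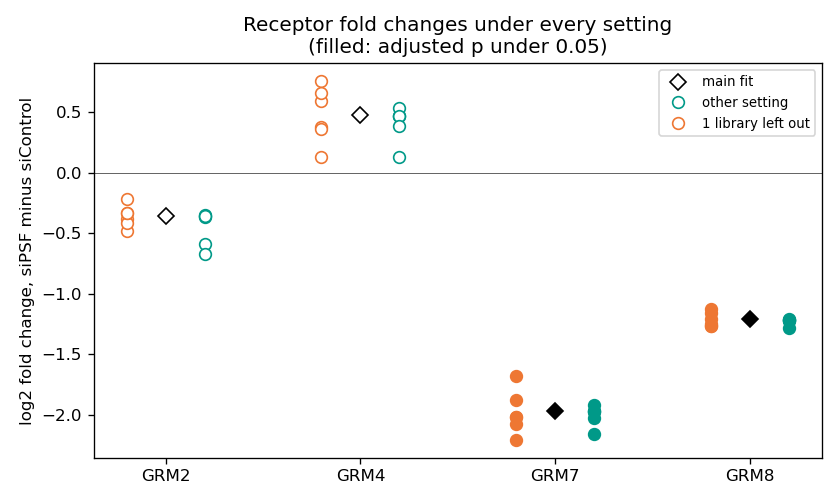
Log2 fold change of each receptor in the fit as reported (black), with 1 library left out (orange) and under the other settings (green), filled where the adjusted p was under 0.05. GRM7 stays between -2.21 and -1.68 and GRM8 between -1.28 and -1.13, all filled, while GRM2 and GRM4 are open throughout.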

How the data were processed

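RNA-seq of SH-SY5Y cells was analysed, 3 siControl and 3 siPSF libraries, with groups and replicate numbers taken from the labels. The authors deposited raw read counts and FPKM values per RefSeq gene, without pooling. Per the paper, rRNA reads were removed with Bowtie 2 and the rest mapped to hg38 with TopHat. The submitters' processing notes name Trimmomatic, HISAT2 2.1.0, StringTie 2.1.3b and GRCh38 instead, and the FPKM unit is called RPKM in the paper. The kit is given as stranded in the labels only, and the strand setting of the counting is not given in the sources used here.

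Counts were filtered with filterByExpr (19694 of 21301 genes kept), normalised by TMM and tested with edgeR 4.0.16 (quasi-likelihood, no replicate block) in R 4.3.3, p-values being adjusted across the tested genes by Benjamini-Hochberg and called under 0.05. The common biological coefficient of variation was 12.6%. Standard errors and 95% intervals come from the same fit. Its calls and fold changes were tested on simulated data with the same spread for every gene. The standard errors and intervals were not tested in that way. With 3 libraries per group, p-values weigh the group difference against the spread between these libraries. Chi-square per degree of freedom between replicates was 20.8 or more, so no libraries were alike within sampling noise. Alternatives were leaving out each library, a replicate block, relative log expression size factors, no filter, DESeq2 1.42.0 and limma 3.58.1 on log2(FPKM + 0.1) or log2(FPKM + 0.01), for genes of a mean of at least 0.01 FPKM. Reading them for genes other than the receptors was added after seeing the data.

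Gene positions and lengths came from RefSeq (GRCh38.p14), which held 20820 of the gene IDs (97.7%), and exons from GENCODE 44. Named genes were the receptors, in each list the 4 called genes with the smallest p and the one with the highest mean FPKM, genes overlapping a receptor gene at a mean of at least 0.1 CPM, and the 3 genes most like each receptor of at least 0.5 CPM. SFPQ, HAND2, PICK1, the nearest neighbours and the genes said to be named after their values were seen fall outside this rule. The receptors and lists were chosen with earlier results of these data known.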

Additional observations from a re-analysis of the deposited data

How the results depend on the processing

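The calls of GRM7 and GRM8 and the missing calls of GRM2 and GRM4 held in all 12 alternatives, and no receptor changed direction. With each library left out, 2 receptors were called lower and 0 higher in every fit. The log2 fold change ran from -2.21 (without siPSF replicate 1) to -1.68 (without siPSF replicate 3) for GRM7, from -1.28 to -1.13 for GRM8, from -0.67 (limma on FPKM) to -0.22 (without siControl replicate 1) for GRM2 and from 0.13 to 0.76 for GRM4. The low end for GRM4 came without siControl replicate 3, whose 18 counts were its lowest. Over all genes, 1628 were called lower and 1310 higher, against 928 and 572 without siControl replicate 2, 1022 and 732 without siControl replicate 3, 1130 and 845 without siPSF replicate 1, and 1878 and 795 or 1867 and 793 with limma on FPKM (pseudocount 0.1 or 0.01). With the replicate block the log2 fold changes were -2.03 for GRM7, -1.21 for GRM8, -0.35 for GRM2 and 0.54 for GRM4, with 1640 genes called lower and 1389 higher. Deviations of same-numbered libraries correlated at -0.045, 0.20 and 0.098, and those of differently numbered libraries at -0.28 to 0.18. With so few libraries these values cannot settle whether the numbers are pairs, and the main fit did not take them as pairs. Of the 32 genes with a call from the pathway and marker lists, 14 kept it in every fit that left out 1 library. Under every alternative 13 kept it, and 0 changed direction. Besides the losses given above, GNAO1 lost its call without the filter, and GNB3, KCNJ9, PPP1CC and GATA3 lost theirs with limma on FPKM. The cause of lost calls was not tested. Depth limits GRM4 most, and genes without a read in any one library were not analysed here.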
